A study of Mus musculus with 70 samples.

Results

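Growth and remodelling of vessels after bone injury were followed through 10 genes of the VEGF and angiopoietin systems, named Vegfa, Vegfb, Vegfc, Pgf, Kdr, Flt1, Flt4, Angpt1, Angpt2 and Tek. They were taken by gene symbol, and all 10 were found and passed the filter on low values, out of 47490 gene names in the femur tables and 46855 in the ulna tables. Bone RNA was taken from C57BL/6 mice, all female and 12 weeks old, whose right limb had received 1 of 2 injuries. In the femur arm the bone was fully fractured and a 7 mm piece around the break was taken, with its marrow spun out. In the ulna arm the bone received a stress fracture, a partial crack, and a 5 mm piece was taken, for which no marrow step is named. Femurs were collected at 4 h, 1 d, 3 d, 7 d and 14 d (5 libraries each) and ulnas at 4 h, 3 d and 5 d (5 each) and at 1 d and 7 d (4 each). The intact controls were left limbs of injured mice, 10 femurs and 9 ulnas, so no group came from an uninjured animal. The time labels speak of callus for femurs at 7 d and 14 d and of periosteum for all other injured groups. The labelled tissue of femurs thus changes between 3 d and 7 d, while the protocol describes whole bone pieces without soft tissue. An intact ulna and 1 ulna each at 1 d and 7 d were not analysed here.

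Depth ran from 8.117 to 30.79 M (megareads) assigned to genes per library, with a median of 16.44 M. Levels are given as scaled RPKM, the deposited reads per kilobase and megaread (RPKM) divided by 1 factor per library, so levels of different genes are comparable per length. The fewest reads in any library were 111 for Vegfb, 375 for Kdr, 645 for Flt1, 250 for Flt4, 132 for Angpt2 and 128 for Tek, while reads of the other 4 genes were not recovered as whole numbers. A change is the difference in mean log2(scaled RPKM + 0.1) with its standard error (SE), which understates changes of genes near 0. A gene is said to have risen, fallen or changed only where limma gave an adjusted p under 0.05 over all genes tested. Labels number animals but table columns do not, so p-values measure the spread between libraries. The labels hold 50 animal numbers, and both limbs were sequenced in 10 animals of the femur arm and 10 of the ulna arm. Intact and injured libraries could thus come from the same mouse, and the tests treated all libraries as independent. In bulk bone, fewer cells of a type and less RNA per cell cannot be told apart. Libraries are numbered by the columns of the tables.

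VEGF ligands are secreted proteins that act on receptor tyrosine kinases of endothelial cells. VEGF-A binds KDR (VEGFR2), the main signalling receptor for vessel growth, and FLT1 (VEGFR1), which binds it tightly, signals weakly and is also made as a soluble decoy. PlGF (Pgf) and VEGF-B bind FLT1 and not KDR, whereas VEGF-C acts through FLT4 (VEGFR3) and KDR and is best known for lymphatic vessels. Angiopoietin 1, made largely by perivascular and stromal cells, activates TEK (TIE2) and keeps vessels quiet, and angiopoietin 2, released by activated endothelium, mostly opposes it and loosens vessels for sprouting. In healing bone, vessels must grow into the callus before cartilage can be replaced.

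The genes lie on chromosomes of mm10 as follows, by GENCODE M21 (GRCm38). Kdr spans chr5:75932827-75978458 on the minus strand and Flt1 spans chr5:147561604-147726011, also on the minus strand. Tek spans chr4:94739289-94874976 on the plus strand. Promoters of 8 of the 10 genes were matched by symbol in RefSeq (GRCm38.p6), and Angpt1 and Angpt2 had no entry. Shown are the 250 bases before the RefSeq start of the 3 receptor genes whose levels parted most at 4 h, when Kdr and Tek fell and Flt1 rose. They are written 5′ to 3′ on the gene's strand, from chr5:75978456-75978705 (minus), chr4:94739039-94739288 (plus) and chr5:147726012-147726261 (minus). Capitals mark the ETS core GGAA, the cyclic AMP response element TGACGTCA and the TATA box TATAAA, on both strands, and no matches overlapped.
Kdr: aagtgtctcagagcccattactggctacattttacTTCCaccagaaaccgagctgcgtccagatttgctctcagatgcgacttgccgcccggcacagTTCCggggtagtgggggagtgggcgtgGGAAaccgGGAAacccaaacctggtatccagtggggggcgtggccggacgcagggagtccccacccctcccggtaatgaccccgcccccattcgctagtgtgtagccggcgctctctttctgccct
Tek: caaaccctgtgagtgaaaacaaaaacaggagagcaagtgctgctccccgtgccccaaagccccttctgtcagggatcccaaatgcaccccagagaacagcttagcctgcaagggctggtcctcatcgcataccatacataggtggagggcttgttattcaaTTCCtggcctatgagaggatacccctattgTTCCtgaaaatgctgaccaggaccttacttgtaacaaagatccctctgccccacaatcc
Flt1: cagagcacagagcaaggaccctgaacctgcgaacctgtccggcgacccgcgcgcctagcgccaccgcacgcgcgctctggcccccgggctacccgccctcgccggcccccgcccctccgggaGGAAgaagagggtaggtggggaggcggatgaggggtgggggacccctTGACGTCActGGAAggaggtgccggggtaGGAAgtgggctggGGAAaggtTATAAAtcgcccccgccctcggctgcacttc
The Kdr and Flt1 windows held 4 matches each to GGAA and the Tek window held 2, but 93.4% of 32851 promoter windows of the same length held at least 1. Of the 3 windows, that of Flt1 alone held TGACGTCA, found in 1.55% of all promoter windows, and TATAAA, found in 12.4%. Other motifs were searched too and are not marked. The longer ETS core CCGGAA (12% of all windows) was matched in Kdr alone, and TGACG (17.8%), a part of TGACGTCA, in Flt1 alone. The hypoxia core NCGTG (55.4%) was matched in all 3, with 2 in Kdr and 1 each in Flt1 and Tek. TGANTCA and AGATAA were matched in none. A link of any motif to the changes at 4 h was not tested. These are matches of letters and not measured binding sites.

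Full fracture changed all 10 genes at 4 h, when Vegfa, Pgf, Flt1 and Angpt2 rose and Vegfb, Vegfc, Kdr, Flt4, Angpt1 and Tek fell. At that time 56.7% of the 19944 genes tested were called. At 1 d, 7 of the 10 were called, beside 51.5% of all genes. The counts were 6 at 3 d beside 56.9%, 7 at 7 d beside 66.2% and 7 at 14 d beside 55.9%. From 1 d on the share of called genes was close to that of all genes, so the results lie in the direction and size of single genes. The median change of the 10 genes was -0.45 at 4 h, 0.06 at 1 d, -0.18 at 3 d, -0.23 at 7 d and 0.25 at 14 d, while the median of all genes stayed between -0.08 and -0.03 at those 5 times. Stress fracture changed fewer, namely 2 at 4 h beside 10.7% of 20506 genes, 1 at 1 d beside 12.8%, 1 at 3 d beside 37.8%, 4 at 5 d beside 43.3% and 5 at 7 d beside 34.6%.

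**Figure D1:**
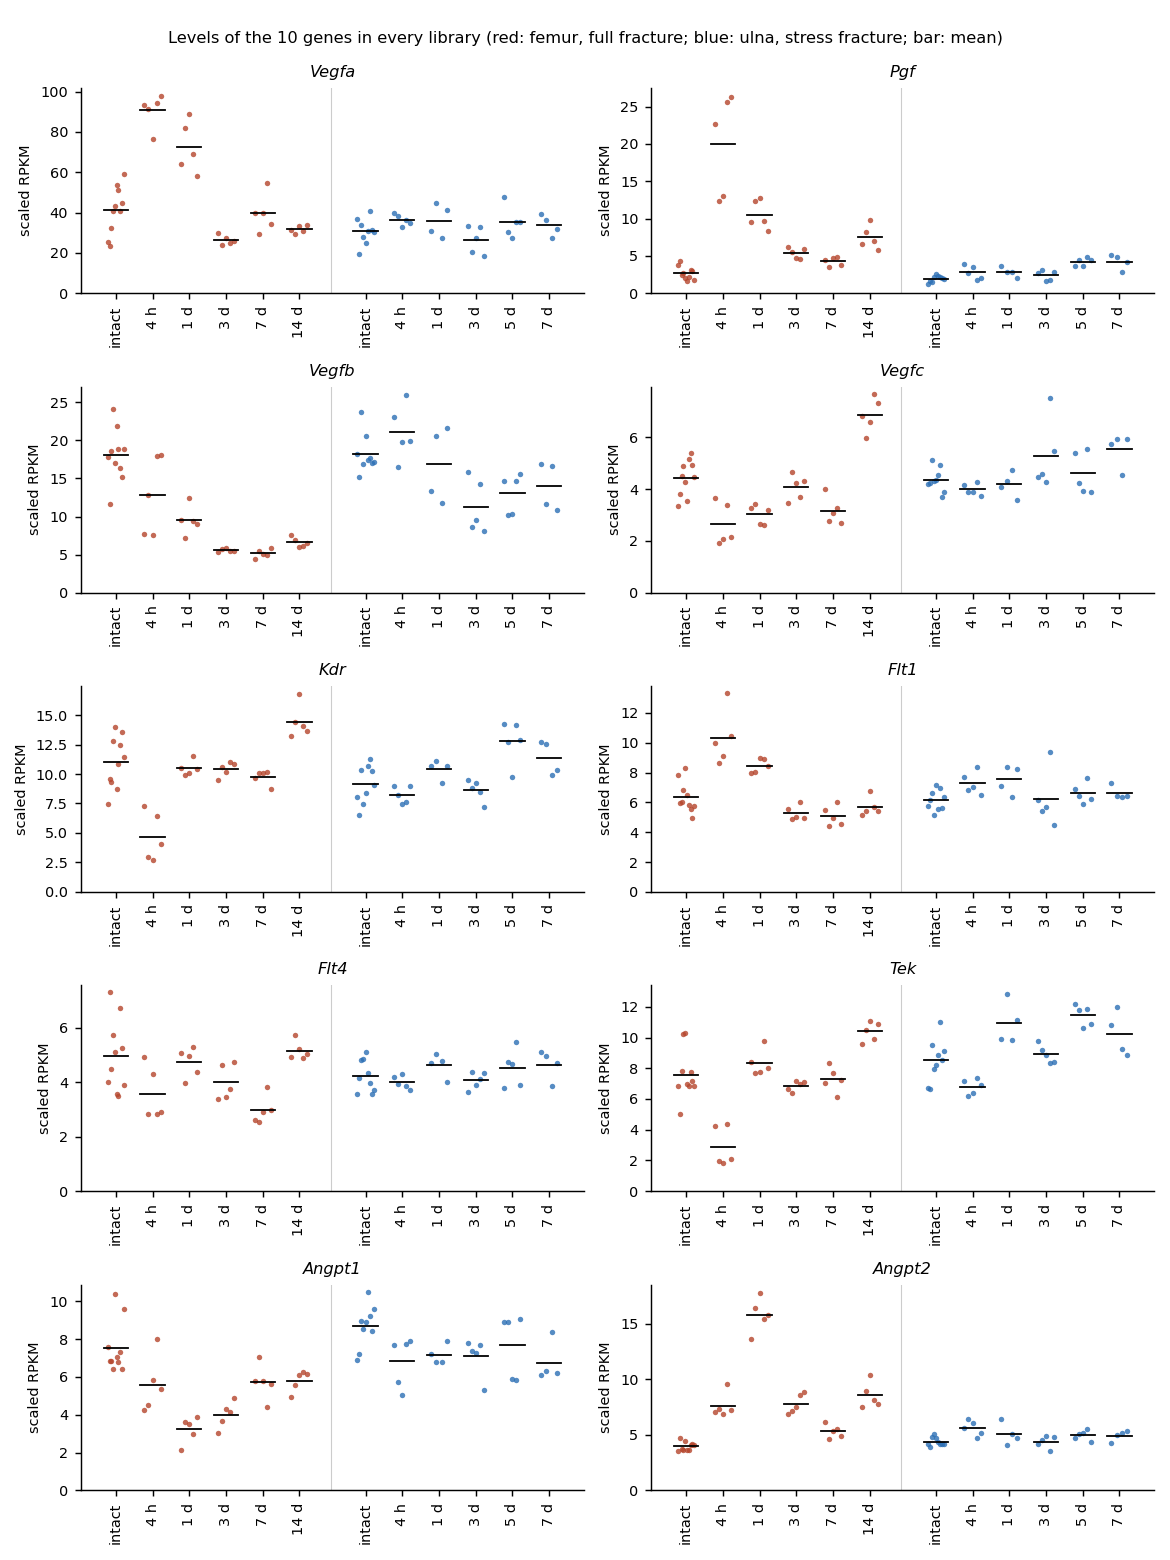
Level of each gene (scaled RPKM, linear axis from 0) in all 67 libraries, by time after full fracture of the femur (red) and stress fracture of the ulna (blue); points are libraries and bars are group means. Vegfa and Pgf peaked at 4 h and Angpt2 at 1 d after full fracture, while Kdr and Tek were lowest at 4 h.

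Pgf, the FLT1 ligand, had the largest rise among the 10 genes after full fracture. Its level was 22.7, 12.4, 13.0, 25.6 and 26.3 scaled RPKM in the 5 femurs at 4 h, against 1.67 to 4.36 with a median of 2.52 in intact femurs. All 5 injured femurs lay above every intact femur, though they fell into a pair near 13 and 3 above 22. The rise was 2.83 ± 0.19 (SE) on the log2 scale, or 7.12-fold (limma adjusted p = 6.33e-14). At 1 d the 5 levels were 9.56, 12.4, 12.8, 9.65 and 8.29, again above all intact femurs, a rise of 1.97 ± 0.19 (adjusted p = 4.18e-10, limma). Pgf then declined further, by 0.94 ± 0.22 from 1 d to 3 d. At 3 d (4.59 to 6.26) it was still above all intact femurs, with a change of 1.03 ± 0.19, and at 7 d (3.50 to 4.92) the groups overlapped, with a change of 0.69 ± 0.19. By 14 d it had risen again, to 6.58, 8.21, 9.77, 7.00 and 5.80, which is 0.78 ± 0.22 above 7 d and 1.48 ± 0.19 above intact femurs.

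Vegfa, the principal endothelial growth factor, rose at 4 h and 1 d and was then at or below its intact level. In the 5 femurs at 4 h its level was 93.3, 91.4, 76.4, 94.3 and 98.0 scaled RPKM, against 23.6 to 58.9 with a median of 42.0 in intact femurs, with no overlap. The rise was 1.18 ± 0.16, or 2.26-fold (limma adjusted p = 1.65e-07). At 1 d it ran from 58.4 to 88.7, a rise of 0.84 ± 0.16 over a range that touched the intact one. Vegfa then fell by 1.45 ± 0.18 from 1 d to 3 d (limma adjusted p = 2.73e-07), to 29.8, 23.7, 27.2, 24.9 and 25.8, below the intact mean of 41.5 ± 11.6 (SD, n = 10). That change from intact femurs was -0.60 ± 0.16, with intact library 1 (25.4) inside the injured range and intact library 2 (23.6) just below it. At 7 d (29.6 to 54.5) Vegfa was not called against intact femurs (limma adjusted p = 0.841). At 14 d (29.6 to 33.9) the difference of -0.33 ± 0.16 missed the threshold in limma (adjusted p = 0.0805), while the authors' deposited table gave -0.41 with an adjusted p of 0.0337, and limma called it without intact library 1 (-0.40) or 2 (-0.41). Its rise of 0.56 from 3 d to 7 d was lost on RPKM as deposited (0.28) and without 7 d library 4 (0.44).

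Because Pgf rose more than Vegfa and stayed up longer, the balance of the 2 ligands was set within each library, as the ratio of Pgf to Vegfa in RPKM. The ratio is formed from the same libraries as the changes above, so its p-values are not separate evidence for them. The same holds for the other ratios below. In intact femurs the ratio ran from 0.0328 to 0.188, with a mean on the log scale equal to 0.0669. It was higher at 4 h (0.211, exact permutation p = 0.003, adjusted over 30 ratio tests 0.00749), 3 d (0.207, adjusted exact p = 0.00699) and 14 d (0.234, adjusted exact p = 0.00466). At 1 d (0.146, adjusted exact p = 0.0288) the 5 values of 0.141 to 0.152 lay inside the intact range, because intact libraries 1 and 2 stood at 0.155 and 0.188. At 7 d (0.112) the test was not passed (adjusted exact p = 0.11). The groups overlapped at all 5 times, at 3 d and 14 d through intact library 2 alone.

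Vegfb, a ligand of FLT1 linked to heart and muscle metabolism, was lower than in intact femurs at every time after full fracture. Between neighbouring times limma called only the fall from 1 d to 3 d (-0.74 ± 0.19). From 7 d to 14 d Vegfb was higher by 0.36 ± 0.19 without overlap, which was not called (limma adjusted p = 0.146). Its level ran from 11.6 to 24.2 scaled RPKM with a median of 18.2 in intact femurs. It was 7.75, 12.8, 7.59, 17.9 and 18.1 at 4 h, where the groups overlapped, and 9.58, 7.22, 12.4, 9.44 and 8.99 at 1 d. At 3 d all 5 femurs lay between 5.33 and 5.88, at 7 d between 4.42 and 5.87 and at 14 d between 6.03 and 7.56, below every intact femur at each of these times. The changes were -0.56 ± 0.16 at 4 h, -0.91 ± 0.16 at 1 d, -1.65 ± 0.16 at 3 d, -1.77 ± 0.16 at 7 d (limma adjusted p = 3.33e-11) and -1.41 ± 0.16 at 14 d. Skeletal muscle markers moved with it. Of 11 muscle markers 4 fell at 4 h, 10 at 1 d and 11 at 3 d, 7 d and 14 d, with medians from -0.54 to -2.65, and their summed level was 9110 to 28300 scaled RPKM in intact femurs and 1440 to 8150 at 7 d, with no marker under a mean of 0.1. Over the 67 libraries, Vegfb and the mean of the muscle markers, each as a difference from intact limbs, had r = 0.934, where the libraries share bone, time and dissection. The part of muscle in the fall of Vegfb was not tested.

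Vegfc, the ligand of FLT4, followed another course, low early and high late. Intact femurs ran from 3.33 to 5.41 scaled RPKM with a median of 4.48. The 5 femurs held 3.66, 1.91, 2.08, 3.38 and 2.14 at 4 h and 6.83, 5.96, 6.61, 7.66 and 7.32 at 14 d. The early values overlapped the lowest intact one, and all late values lay above the intact range. The changes were -0.76 ± 0.13 at 4 h (limma adjusted p = 8.08e-06), -0.53 ± 0.13 at 1 d, -0.47 ± 0.13 at 7 d and 0.64 ± 0.13 at 14 d (limma adjusted p = 0.0001). At 3 d (3.46 to 4.67) it was not called (limma adjusted p = 0.51). The step from 7 d to 14 d was the largest among the 10 genes in that interval, 1.11 ± 0.15.

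The receptors split at 4 h after full fracture: Kdr and Tek fell by more than any other of the 10 genes while Flt1 rose. Kdr was at 7.26, 2.98, 2.72, 6.43 and 4.04 scaled RPKM, against 7.49 to 14.0 with a median of 11.1 in intact femurs. Tek was at 4.27, 1.95, 1.82, 4.39 and 2.08, against 5.04 to 10.3 with a median of 7.07. Libraries 1 and 4 were the highest for both genes, yet all 5 lay under every intact femur. The changes were -1.30 ± 0.16 for Kdr (limma adjusted p = 1.85e-08) and -1.44 ± 0.16 for Tek (limma adjusted p = 2.74e-09). By contrast Flt1 was at 9.99, 8.68, 9.08, 13.4 and 10.4, above every intact femur (4.94 to 8.29, median 6.01), a rise of 0.69 ± 0.10 (limma adjusted p = 6.35e-07). Flt4, the receptor of lymphatic endothelium, was at 4.93, 2.84, 4.32, 2.83 and 2.89 and overlapped the intact range of 3.50 to 7.33, with a change of -0.47 ± 0.15.

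The fall of Kdr and Tek was gone by 1 d. Kdr rose by 1.25 ± 0.18 and Tek by 1.59 ± 0.18 between 4 h and 1 d, to 10.5, 9.91, 10.1, 11.5 and 10.4 for Kdr and 8.41, 7.66, 7.73, 9.77 and 8.03 for Tek. All of these lay inside the intact ranges. Neither gene was called against intact femurs at 1 d, 3 d or 7 d, with limma adjusted p from 0.395 to 0.832 for Kdr and from 0.434 to 0.852 for Tek. At 14 d both were higher than in intact femurs. Kdr, at 13.3, 14.4, 16.8, 14.1 and 13.7, changed by 0.41 ± 0.16 (limma adjusted p = 0.026), and without 14 d library 3 this call was lost (0.36, adjusted p = 0.078). Tek, at 9.61, 10.5, 11.1, 9.92 and 10.9, changed by 0.48 ± 0.16 (limma adjusted p = 0.01).

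Flt1 returned from its early peak and went slightly below the intact level. It was at 8.0, 8.05, 8.98, 8.88 and 8.42 at 1 d, a change of 0.42 ± 0.10, with 1 of 10 intact femurs (8.29) inside that range. It then fell by 0.67 ± 0.12 to 3 d. At 7 d (4.41 to 6.02) the change from intact femurs was -0.31 ± 0.10 (limma adjusted p = 0.00719). At 3 d the change of -0.25 was called (limma adjusted p = 0.0346), but the call was lost without 3 d library 2 (-0.22), 3 (-0.23) or 5 (-0.22), without intact library 1 (-0.21), 4 (-0.23) or 5 (-0.20), and on RPKM as deposited (-0.18). The call was also lost in a fit of the 2 groups alone (-0.23) and with no filter on low values. Flt4 was lowest at 7 d, with 2.62, 2.55, 2.89, 3.82 and 2.99, a change of -0.69 ± 0.15 (limma adjusted p = 0.000157), and at 14 d it stood at 4.89 to 5.73, inside the intact range.

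**Figure D2:**
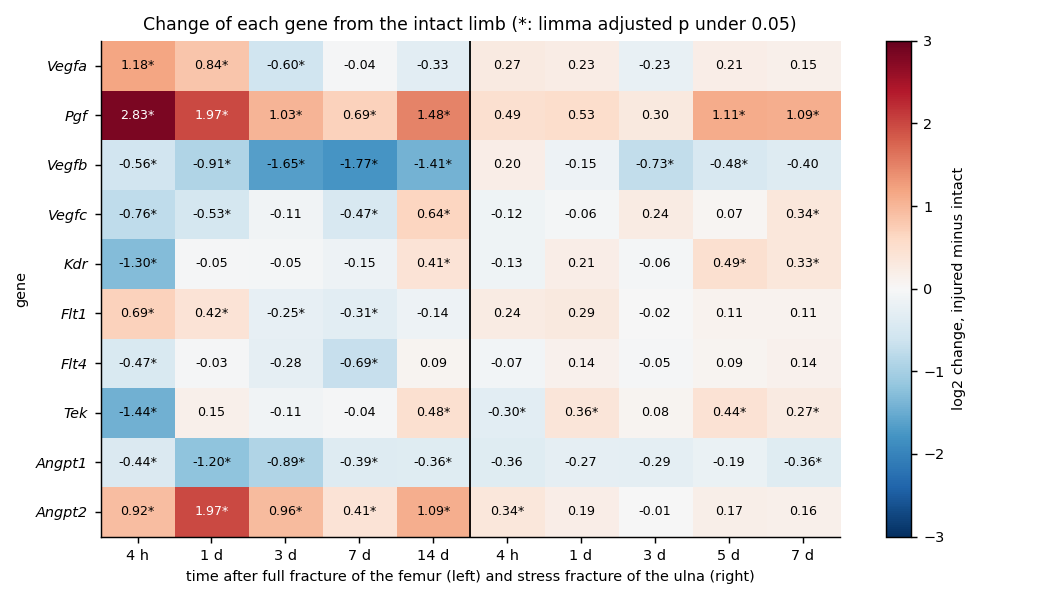
Log2 change of each gene from the intact limb of the same bone, at 5 times after full fracture (left) and 5 times after stress fracture (right); an asterisk marks a limma adjusted p under 0.05. All 10 genes were called 4 h after full fracture and 2 of them 4 h after stress fracture.

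The receptors were set beside 15 other markers of endothelium, among them Pecam1, Cdh5, Emcn and Erg, because these receptors sit mainly on endothelial cells. At 4 h 7 of the 15 markers rose and 4 fell, and their summed level ran from 156 to 228 scaled RPKM against 147 to 197 in intact femurs, with no marker under a mean of 0.1. At 1 d 9 rose and none fell, at 3 d 8 and none, at 7 d 8 and 1, and at 14 d 12 and none. Relative to the mean of these markers within each library, Kdr fell by 1.33 and Tek by 1.47 at 4 h on the log2 scale, with no overlap, and Flt1 rose by 0.65 (each with exact permutation p = 0.000333, the smallest that 10 against 5 libraries allow, and 0.00222 adjusted over 40 tests). Mural cell markers also moved at 4 h, with 6 of 10 lower, 1 higher and a median of -0.63, and their part in these values was not tested.

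**Figure D3:**
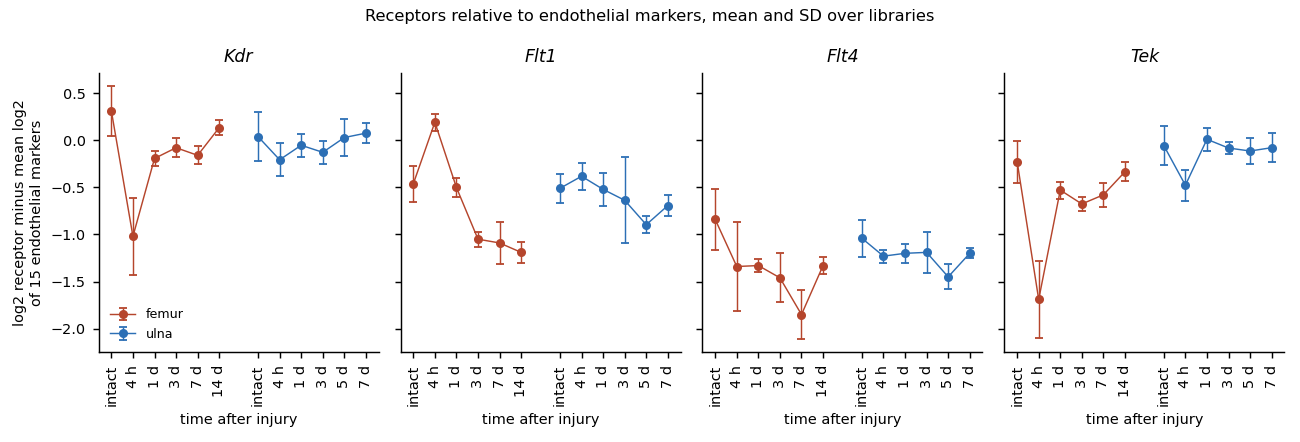
Each receptor relative to 15 endothelial markers (log2 RPKM of the receptor minus the mean log2 RPKM of the markers) by time; points are group means and bars are SD over libraries. Kdr and Tek dropped by 1.33 and 1.47 at 4 h after full fracture, and Flt4 was lowest at 7 d, 1.01 under intact femurs.

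At later times Flt1 and Flt4, and up to 7 d Kdr and Tek, were lower relative to the endothelial markers than in intact femurs, though not in every test. At 1 d Flt1 differed by -0.04 (adjusted exact permutation p = 0.79), and at 14 d Tek differed by -0.11 (adjusted exact p = 0.441). Flt1 relative to the markers changed by -0.59 at 3 d, -0.63 at 7 d and -0.73 at 14 d, with adjusted exact permutation p of 0.00222, 0.00381 and 0.00222. Flt4 changed by -0.62 at 3 d, -1.01 at 7 d and -0.49 at 14 d, with adjusted exact p of 0.00666, 0.00222 and 0.0133. Markers of lymphatic endothelium moved in the same period, with 4 of 6 lower at each time from 1 d to 14 d. Their summed level did not follow that count. It was 23.6 to 38.6 scaled RPKM in intact femurs, 67.9 to 117 at 1 d and 38.6 to 52.2 at 3 d. At 7 d it was 23.3 to 41.8 and at 14 d 22.4 to 25.1. The part of these markers was not tested. For Kdr the relative change was -0.50 at 1 d, -0.39 at 3 d and -0.47 at 7 d (adjusted exact p = 0.00999, 0.0237 and 0.0113), and at 14 d it was -0.18 (adjusted exact p = 0.266). Tek showed -0.30, -0.45 and -0.35 at 1 d, 3 d and 7 d (adjusted exact p = 0.0287, 0.00666 and 0.0196). With the median of the 15 markers in place of their mean, the calls of Tek at 1 d, 3 d and 7 d (-0.14, -0.26 and -0.28), Kdr at 3 d (-0.20) and Flt4 at 1 d (-0.33) were lost. The call of Kdr at 3 d was also lost without 3 d library 1 (-0.35), that of Tek at 7 d without 7 d library 4 (-0.31), and that of Tek at 1 d without 1 d library 1 (-0.30), 2 (-0.31) or 3 (-0.27).

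Angiopoietin 2 rose at every time after full fracture and angiopoietin 1 fell at every time. Angpt2 was at 3.57 to 4.71 scaled RPKM, median 3.90, in intact femurs. It reached 7.02, 7.36, 6.92, 9.55 and 7.20 at 4 h and 13.7, 16.4, 17.8, 15.5 and 15.8 at 1 d, the highest of all times. Every femur at these times was above every intact femur. The rises were 0.92 ± 0.09 at 4 h and 1.97 ± 0.09 at 1 d, or 3.92-fold (limma adjusted p = 5.82e-18). It then declined by 1.01 ± 0.10 to 3 d, when it stood at 6.91, 7.18, 7.49, 8.63 and 8.86, and by 0.55 ± 0.10 more to 7 d. At 7 d (4.58 to 6.17) the groups overlapped by 1 library each, and the change of 0.41 ± 0.09 was lost on RPKM as deposited (0.20). At 14 d Angpt2 was again above all intact femurs, at 7.51, 8.99, 10.4, 8.15 and 7.76, a rise of 1.09 ± 0.09 (limma adjusted p = 5.46e-12). Macrophage markers moved in the same direction at 1 d, with 6 of 10 higher and 1 lower and a median of 1.33, beside 9 of 15 endothelial markers, and neither was tested as a source.

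Angpt1 was at 6.42 to 10.4 scaled RPKM, median 6.96, in intact femurs. It was at 4.25, 4.51, 5.86, 7.99 and 5.35 at 4 h, 2.15, 3.62, 3.52, 2.99 and 3.89 at 1 d, and 3.05, 3.65, 4.29, 4.14 and 4.89 at 3 d. The groups overlapped at 4 h through 1 femur and did not overlap at 1 d or 3 d. The changes were -0.44 ± 0.14, -1.20 ± 0.14 (limma adjusted p = 1.53e-08) and -0.89 ± 0.14. At 7 d (4.41 to 7.03) and 14 d (4.92 to 6.23) Angpt1 was closer to intact femurs, by -0.39 ± 0.14 and -0.36 ± 0.14. The call at 7 d was lost without 7 d library 4 (-0.29), and that at 14 d without 14 d library 1 (-0.30) or 2 (-0.34) or intact library 5 (-0.30) or 10 (-0.32). Of 6 markers of marrow stroma, a known source of Angpt1, 5 fell at 1 d, 3 d and 7 d, with a median of -1.22 at 1 d. At 4 h, however, 1 rose and 1 fell (median -0.08), and at 14 d 2 rose and 1 fell (median 0.24), while Angpt1 was lower at both times. Their summed level was 49.4 to 63.0 scaled RPKM at 1 d against 110 to 245 in intact femurs, none was under a mean of 0.1, and their part in the fall of Angpt1 was not tested.

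The opposite changes of the 2 angiopoietins parted injured from intact femurs in their ratio, without overlap at 4 of 5 times. The ratio of Angpt2 to Angpt1 ran from 0.428 to 0.694 in the 10 intact femurs, all below 1. It was 1.64, 1.62, 1.18, 1.19 and 1.34 at 4 h, 6.15, 4.44, 4.95, 5.05 and 3.98 at 1 d, and 2.23, 1.94, 1.73, 2.06 and 1.80 at 3 d. At 7 d it was 1.07, 0.656, 0.922, 1.25 and 0.867, with 1 femur inside the intact range, and at 14 d it was 1.51, 1.60, 1.69, 1.30 and 1.26. The log2 differences from intact femurs were 1.36, 3.18, 1.85, 0.79 and 1.45 in that order. All 5 were called by the exact two-sided permutation test (adjusted p = 0.00285 at 7 d and 0.002 at the other times). Leaving out any 1 library kept the difference at 1 d between 3.09 and 3.25.

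A second ratio, Flt1 to Kdr, marked 4 h. It was 1.37, 2.84, 3.26, 2.06 and 2.54 in the 5 femurs at 4 h, so that Flt1 exceeded Kdr per length in all of them, against 0.369 to 1.05 in intact femurs, where 1 of 10 was above 1. RPKM give 1 value per gene, so RNA for the soluble decoy and for the receptor form of FLT1 were not told apart. The difference was 1.98 on the log2 scale (exact permutation p = 0.000333, adjusted 0.002). By 14 d the ratio had gone the other way, to 0.383 to 0.409, a difference of -0.55 (adjusted exact p = 0.0193). The 1 d difference of 0.47 (adjusted exact p = 0.0436) was lost when any 1 of the 5 libraries of 1 d was left out, with values from 0.43 to 0.49, and without intact library 2, 4, 5, 7, 8, 9 or 10, with values from 0.39 to 0.48.

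**Figure D4:**
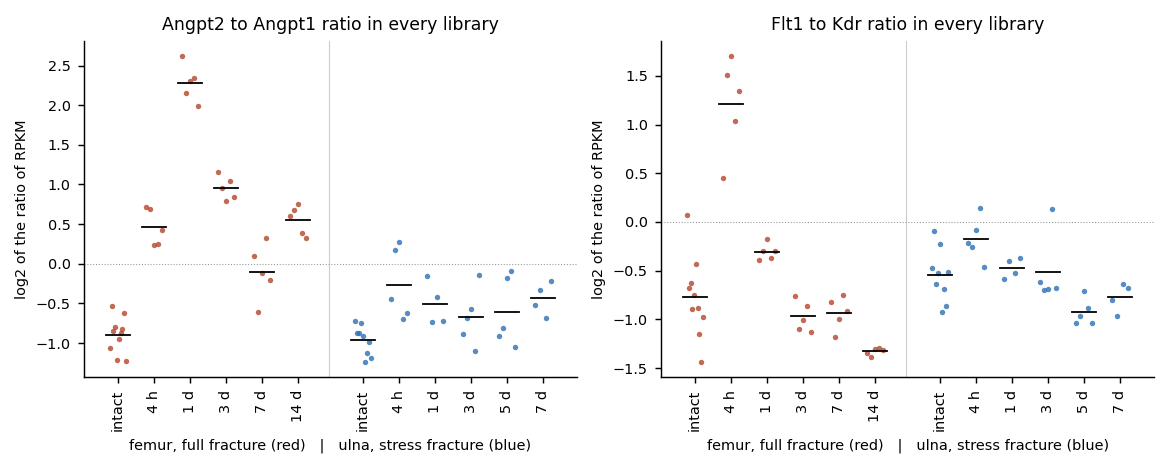
Log2 of the ratios Angpt2 to Angpt1 (left) and Flt1 to Kdr (right) in every library, from RPKM as deposited plus 0.1; points are libraries, bars are group means and the dotted line marks equal levels. After full fracture Angpt2 to Angpt1 peaked at 1 d (3.98 to 6.15) and Flt1 to Kdr at 4 h (1.37 to 3.26).

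After stress fracture of the ulna the same genes moved less, and mostly late. Pgf was the only one of the 10 whose injured and intact ulnas did not overlap. It was at 3.70, 4.39, 3.62, 4.91 and 4.48 scaled RPKM at 5 d and 5.10, 4.83, 2.86 and 4.16 at 7 d, against 1.22 to 2.54 with a median of 2.01 in 9 intact ulnas. The rises were 1.11 ± 0.19 (limma adjusted p = 1.79e-05) and 1.09 ± 0.20 (limma adjusted p = 0.000101), both a little over 2.1-fold. Pgf was already 0.49 ± 0.19 above intact ulnas at 4 h and 0.53 ± 0.20 above at 1 d, but these values missed the threshold (limma adjusted p = 0.1 and 0.0855). They passed it without 4 h library 4 (0.63) and without 1 d library 5 (0.66), and at 1 d the authors' deposited table gave 0.44 with an adjusted p of 0.041. The ratio of Pgf to Vegfa was higher at 5 d by 0.91 and at 7 d by 0.95 on the log2 scale (adjusted exact permutation p = 0.0118 and 0.00968). Its rise from 3 d to 5 d of 0.81 was lost without 3 d library 3 (0.70) or 4 (0.73) or 5 d library 2 (0.80) or 4 (0.76).

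Kdr and Tek rose together at 5 d after stress fracture. Kdr was at 14.3, 12.7, 9.73, 14.2 and 12.9 and Tek at 12.2, 11.8, 10.6, 11.9 and 10.9 scaled RPKM, against 6.55 to 11.3 and 6.62 to 11.0 in intact ulnas. In both genes most injured ulnas were above the intact range, and 1 for Kdr and 2 for Tek were inside it. The changes were 0.49 ± 0.11 (limma adjusted p = 0.000576) and 0.44 ± 0.09 (limma adjusted p = 0.000293). At this time 14 of the 15 endothelial markers also rose, with a median of 0.40, and relative to them Kdr differed by -0.01 and Tek by -0.06 (adjusted exact permutation p = 0.947 and 0.693). Flt1 and Flt4 were not called at 5 d, and relative to the same markers they changed by -0.39 and -0.41 (adjusted exact p = 0.005 and 0.00727). The ratio of Flt1 to Kdr was lower at 5 d, at 0.488 to 0.612 against 0.528 to 0.939 in intact ulnas (-0.38, adjusted exact p = 0.0281), a call lost without 5 d library 1 (-0.35).

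The early response of the ulna was small. At 4 h Tek was at 7.14, 6.22, 6.39, 7.34 and 6.93 and Angpt2 at 5.62, 6.46, 6.09, 4.72 and 5.12, so that both overlapped intact ulnas. Tek fell by 0.30 ± 0.09 (limma adjusted p = 0.0303) and Angpt2 rose by 0.34 ± 0.09 (limma adjusted p = 0.0157). The call of Tek was lost without 4 h library 2 (-0.27) or 3 (-0.28), without intact library 4 (-0.28), 8 (-0.26) or 10 (-0.29), and in a fit of the 2 groups alone (-0.30). That of Angpt2 was lost without 4 h library 2 (0.29) or 3 (0.31) and on RPKM as deposited (0.29). The direction of Tek then turned. At 1 d it was at 9.93, 12.8, 9.82 and 11.1, a step of 0.67 ± 0.11 from 4 h without overlap (limma adjusted p = 0.000197). Its rise of 0.36 ± 0.10 over intact ulnas at 1 d was lost without 1 d library 2 (0.29) and in a fit of the 2 groups alone (0.35).

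The ratio of Angpt2 to Angpt1 moved up in the ulna too, by less than in the femur. It was 0.736, 1.12, 1.21, 0.615 and 0.652 at 4 h and 0.700, 0.798, 0.623 and 0.858 at 7 d, against 0.423 to 0.606 in intact ulnas, with no overlap at either time. The log2 differences were 0.70 at 4 h (adjusted exact permutation p = 0.0025), 0.45 at 1 d (0.00749, adjusted exact p) and 0.53 at 7 d (0.00466, adjusted exact p). At 3 d (0.29, adjusted exact p = 0.0928) and 5 d (0.36, adjusted exact p = 0.0772) the test was missed, and it was passed at 3 d without 3 d library 4 (0.39) and at 5 d without 5 d library 5 (0.47). In limma Angpt1 by itself was called only at 7 d (-0.36, limma adjusted p = 0.0403), with 3 ulnas at 6.10 to 6.30 and 1 at 8.40. The authors' deposited table called it lower at 4 h, 1 d, 3 d and 7 d (-0.32, -0.28, -0.29 and -0.35, adjusted p = 0.0327, 0.0285, 0.0149 and 0.00601). The limma call was lost without 7 d library 1 (-0.32), 2 (-0.33) or 5 (-0.33), without intact library 4 (-0.36), 6 (-0.36), 7 (-0.33), 8 (-0.35) or 10 (-0.34), and with no filter on low values (-0.36).

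Among the remaining ligands, Vegfb fell at 3 d after stress fracture, at 15.9, 8.57, 9.50, 14.2 and 8.13 scaled RPKM against 15.2 to 23.8 in intact ulnas, a change of -0.73 ± 0.17 (limma adjusted p = 0.000888). Muscle markers moved with it again, with 9 of 11 lower at 3 d and a median of -0.90. At 5 d Vegfb differed by -0.48 ± 0.17 (limma adjusted p = 0.0201), a call lost without 5 d library 2 (-0.40) or 3 (-0.41). At 7 d Vegfc rose by 0.34, Kdr by 0.33 and Tek by 0.27 (limma adjusted p = 0.0287, 0.0307 and 0.0365). The 3 calls were lost without 7 d library 1 (0.32, 0.27 and 0.24) or 2 (0.30, 0.28 and 0.19) and on RPKM as deposited (0.25, 0.24 and 0.18). Those of Kdr and Tek also went without intact library 2 (0.27 and 0.23) or 5 (0.30 and 0.26), that of Tek without intact library 1 (0.23), and that of Vegfc without 7 d library 5 (0.30) or intact library 9 (0.31). Kdr and Tek also lost their calls in a fit of the 2 groups alone and with no filter on low values, and Tek with upper-quartile scaling (0.25). The authors' deposited table called Vegfc and Kdr at 7 d but not Tek (0.27, adjusted p = 0.0701). It called Vegfb lower at 7 d (-0.37, adjusted p = 0.0154), where limma did not (-0.40, adjusted p = 0.0919). In limma Vegfa and Flt1 were not called at any time after stress fracture, with limma adjusted p of 0.29 to 0.543 for Vegfa and 0.116 to 0.903 for Flt1. The authors' deposited table called Flt1 higher at 4 h (0.24, adjusted p = 0.0293) and 1 d (0.26, adjusted p = 0.0371).

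The responses to the injuries were compared directly at the 4 shared times, as the change after full fracture minus the change after stress fracture in 1 fit of 67 libraries. At 4 h 8 of the 10 genes differed, beside 36.0% of 21092 genes tested. Pgf (2.34 ± 0.27, limma adjusted p = 6.08e-10), Vegfa (0.90 ± 0.23), Angpt2 (0.57 ± 0.13) and Flt1 (0.43 ± 0.15) rose more after full fracture. Kdr (-1.18 ± 0.19, limma adjusted p = 2.41e-06), Tek (-1.15 ± 0.19), Vegfb (-0.78 ± 0.24) and Vegfc (-0.65 ± 0.17) were lower after it. At 1 d 5 of 10 differed beside 27.2% of all genes, led by Angpt2 (1.77 ± 0.13, limma adjusted p = 1.26e-15), Pgf (1.43 ± 0.28) and Angpt1 (-0.96 ± 0.20), with Vegfb (-0.78 ± 0.25) and Vegfc (-0.48 ± 0.18) below them. For Vegfa the difference at 1 d was 0.59 ± 0.24 and missed the threshold (limma adjusted p = 0.0581). It passed on RPKM as deposited (0.70) and without femur 1 d library 5, ulna 1 d library 2, intact femur 6, 7 or 10 or intact ulna 2 or 6, with values from 0.63 to 0.71.

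At 3 d 4 of 10 differed beside 26.3%, namely Angpt2 (0.97 ± 0.13), Vegfb (-0.91 ± 0.24), Pgf (0.74 ± 0.27) and Angpt1 (-0.60 ± 0.19). At 7 d 5 of 10 differed beside 47.0%, all lower after full fracture beside 23.5% of all genes that were: Vegfb (-1.37 ± 0.25), Flt4 (-0.83 ± 0.19), Vegfc (-0.81 ± 0.18), Kdr (-0.48 ± 0.20) and Flt1 (-0.42 ± 0.16). Some of these calls rested on single libraries. Without femur 3 d library 1 those of Pgf (0.69) and Angpt1 (-0.51) at 3 d were lost. The Pgf call at 3 d was also lost without femur 3 d library 2 or 5, intact femur 5, 6 or 10, ulna 3 d library 3 or 4 or intact ulna 6 or 7, with values from 0.63 to 0.73. At 7 d those of Flt1 and Kdr were lost without femur 7 d library 2 (-0.37 and -0.49) or ulna 7 d library 1 (-0.37 and -0.42), and that of Kdr in 15 further fits without 1 library, with values from -0.50 to -0.42. That of Flt1 at 4 h was lost without femur 4 h library 4 (0.34). At 1 d the Vegfb call was lost without ulna 1 d library 2 (-0.66) or 5 (-0.64). The Vegfc call at 1 d was lost on RPKM as deposited (-0.37) and without any 1 of 9 libraries (femur 1 d 3 and 4, ulna 1 d 2 and 4, intact femur 7, 8 and 9 and intact ulna 9 and 10), with values from -0.47 to -0.42. With no filter on low values the calls of Vegfc at 1 d, Pgf at 3 d and Kdr at 7 d were lost. That of Kdr was also lost with upper-quartile scaling (-0.46).

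**Figure D5:**
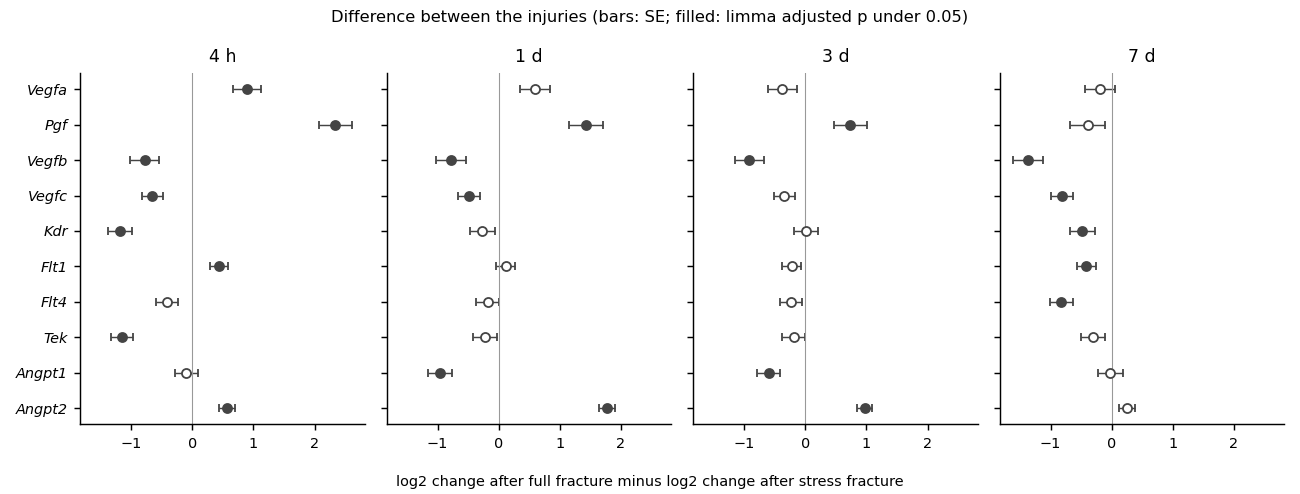
Difference between the injuries for each gene at 4 shared times (log2 change after full fracture minus log2 change after stress fracture); bars are SE, and filled points had a limma adjusted p under 0.05. Pgf differed most at 4 h (2.34), Angpt2 most at 1 d (1.77) and Vegfb most at 7 d (-1.37).

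Without injury the 2 bones also differed. In intact ulnas Vegfa (-0.60 ± 0.14), Pgf (-0.62 ± 0.16), Kdr (-0.46 ± 0.11), Flt4 (-0.39 ± 0.11) and Flt1 (-0.23 ± 0.09) were lower than in intact femurs, 5 of 10 beside 39.7% of all genes called and 21.7% called lower. On RPKM as deposited the calls of Kdr (-0.24), Flt4 (-0.17) and Flt1 (-0.01) were lost, where the median of all genes was 0.20. That of Flt1 was also lost without intact femur 1 (-0.20) or 5 (-0.19) or intact ulna 5 (-0.20), 7 (-0.22) or 9 (-0.22). Of the endothelial markers 8 of 15 were lower in the ulna and none higher. Bone, length of the piece and the marrow step cannot be told apart here.

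Neighbouring times were also compared within each bone, the later minus the earlier. In femurs 6 of 10 genes changed from 4 h to 1 d (39.8% of all genes), 6 from 1 d to 3 d (32.1%), 3 from 3 d to 7 d (35.1%) and 6 from 7 d to 14 d (31.5%). From 4 h to 1 d they were Pgf, Kdr, Flt4, Angpt1, Angpt2 and Tek. From 1 d to 3 d they were Vegfa, Vegfb, Vegfc, Pgf, Flt1 and Angpt2. The last step went up in all 6, beside 14.0% of all genes that rose, with Vegfc, Flt4 (0.79 ± 0.17), Pgf, Angpt2 (0.68 ± 0.10), Kdr (0.56 ± 0.18) and Tek (0.51 ± 0.18). From 3 d to 7 d they were Vegfa, Angpt1 (0.51 ± 0.16) and Angpt2, and the call of Angpt1 was lost on RPKM as deposited (0.23) and without 3 d library 1 (0.42). In ulnas Tek alone changed from 4 h to 1 d (11.1%), Vegfb alone from 1 d to 3 d (-0.58 ± 0.20; 17.1%), Pgf, Kdr (0.55 ± 0.12) and Tek (0.36 ± 0.11) from 3 d to 5 d (4.68%), and none from 5 d to 7 d (1.70%; limma, with no gene of the 10 under an unadjusted p of 0.05). The call of Tek from 7 d to 14 d was lost without 7 d library 1 (0.50) or 4 (0.45) or 14 d library 3 (0.49) or 5 (0.50). In femurs the call of Flt4 from 4 h to 1 d (0.44 ± 0.17) was lost without 4 h library 2, 4 or 5 or 1 d library 1, 3, 4 or 5 (0.365 to 0.464). It was also lost with no filter on low values and with a pseudocount of 1. The call of Vegfc from 1 d to 3 d (0.42 ± 0.15) was lost without 1 d library 3 or 4 or 3 d library 2, 3 or 5 (0.37 to 0.41), and on RPKM as deposited. In ulnas that of Vegfb was lost without 1 d library 2 or 5, 3 d library 2, 3 or 5 or intact library 1 or 7 (-0.58 to -0.45), and that of Tek from 3 d to 5 d without 3 d library 2, 3, 4 or 5, 5 d library 1, 2 or 4 or intact library 6, 7 or 9 (0.34 to 0.37).

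Around the ligands and receptors stands a set of co-receptors and modulators, 12 genes that hold, process or switch off the signals. At 4 h after full fracture 8 of the 12 fell and none rose, with a median of -0.65, beside 56.7% of all genes called in either direction. Nrp1, the neuropilin that presents VEGF-A to KDR, went at 4 h from 19.2 ± 2.56 to 10.6 ± 4.42 scaled RPKM (SD, n = 10 and 5; log2 change -0.95, limma adjusted p = 8.57e-07), and Svep1, a matrix protein needed for lymphatic vessels, fell by 0.91. At 1 d 4 of the 12 rose and 3 fell, beside 51.5% called. At 3 d 10 rose and 2 fell (all genes 56.9%), at 7 d 8 and 2 (66.2%), and at 14 d 10 and 2 (55.9%). The phosphatase Ptprb, which removes phosphate from TEK, was lower from 1 d on, by -0.82 at 1 d, -0.84 at 3 d, -0.96 at 7 d and -0.51 at 14 d. Factors that release active VEGF-C rose, namely Ccbe1 by 2.06 at 3 d and Adamts3 by 2.30 at 7 d, to 12.0 ± 1.59 from 2.36 ± 0.44. Angpt4, another TEK ligand, was lower at 3 d (-1.17) and 7 d (-1.24) and higher at 14 d (1.5). After stress fracture none rose and 2 fell at 4 h and 1 rose and 1 fell at 1 d, beside 10.7% and 12.8% of all genes called. At 3 d 8 rose and 2 fell, and 9 rose and none fell at 5 d and at 7 d. Of all genes 37.8%, 43.3% and 34.6% were called at these last 3 times, when Vash2 was up by 2.13, 1.73 and 1.68.

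For oxygen sensing, the main known control of Vegfa, RNA of 9 genes was followed, of which 8 passed the filter in femurs. The activity of their proteins was not measured. After full fracture 2 rose and 3 fell at 4 h, 3 and 3 at 1 d, 2 and 5 at 3 d, 3 and 3 at 7 d, and 2 and 5 at 14 d, against 51.5% to 66.2% of all genes called. After stress fracture 1 rose and none fell at 4 h and at 1 d, 2 and 4 at 3 d, 3 and 2 at 5 d, and 2 and 1 at 7 d. Of all genes 10.7%, 12.8%, 37.8%, 43.3% and 34.6% were called at those 5 times. Hif1a, the inducible subunit of the hypoxia factor, rose at every time and in both bones. It stood at 55.2 ± 3.21 scaled RPKM at 4 h after full fracture against 11.8 ± 1.61 in intact femurs (log2 change 2.23, limma adjusted p = 4.42e-18) and was highest at 7 d, at 84.0 ± 7.71, when Vegfa was not called. Epas1, which encodes the related endothelial subunit, fell by 0.93 at 1 d, 1.25 at 3 d and 1.23 at 7 d. After stress fracture Hif1a rose by 0.38 at 4 h, 0.77 at 1 d, 1.17 at 3 d, 1.11 at 5 d and 0.67 at 7 d, and the first of these calls was lost without 4 h library 1 (0.31), 2 (0.34) or 3 (0.34) and on RPKM as deposited (0.33).

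Among 15 hypoxia targets 7 were higher and 1 lower at 4 h, 7 and 2 at 1 d, 4 and 6 at 3 d, 7 and 2 at 7 d, and 2 and 7 at 14 d after full fracture. These counts, 8 to 10 of 15, were close to the 51.5% to 66.2% of all genes called at those times. Slc2a1, the glucose transporter GLUT1, rose most at 4 h, from 5.29 ± 0.57 to 49.8 ± 9.25 scaled RPKM (log2 change 3.20), and Adm, the vessel peptide adrenomedullin, rose by 2.63. From 3 d on, the collagen prolyl hydroxylase P4ha2 was among those that rose most (1.44, 3.08 and 1.28 at 3 d, 7 d and 14 d), while Bnip3 fell at 3 d (-2.06) and Hk2 fell at 7 d (-1.20) and 14 d (-2.04). After stress fracture none of the 15 rose and 1 fell at 4 h, and the numbers were 1 and 2 at 1 d, 2 and 5 at 3 d, 2 and 7 at 5 d, and 2 and 4 at 7 d. Of all genes 10.7%, 12.8%, 37.8%, 43.3% and 34.6% were called at those times, and the direction of the list was not tested. At the last 3 times the 2 that rose were P4ha1 and P4ha2. The 1 at 1 d was P4ha1 (0.47), a call lost without 1 d library 2 (0.33).

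Full fracture raised 11 and lowered 4 of 16 genes known to respond to signalling through these receptors at 4 h, and the numbers were 11 and 1 at 1 d, 10 and 3 at 3 d, 10 and 4 at 7 d, and 10 and 1 at 14 d, when 56.7%, 51.5%, 56.9%, 66.2% and 55.9% of all genes were called. After stress fracture 5 rose and 2 fell at 4 h, 5 and 1 at 1 d, 7 and 1 at 3 d, 11 and 3 at 5 d, and 10 and 2 at 7 d, beside 10.7%, 12.8%, 37.8%, 43.3% and 34.6%. Apln, the peptide apelin of sprouting endothelium, rose from 2.90 ± 1.42 to 36.5 ± 5.82 scaled RPKM at 1 d (log2 change 3.73, limma adjusted p = 4.34e-13) and remained up by 2.94 at 3 d and 3.25 at 7 d. Its receptor Aplnr first fell, to 1.74 ± 1.67 from 7.42 ± 2.77 at 4 h (-2.46), and was then higher by 2.25 at 3 d and 2.81 at 14 d. Rcan1, a calcineurin regulator that VEGF-A induces in endothelial cells, rose at 4 h in both bones, by 1.60 after full and 1.68 after stress fracture. Esm1, a product of endothelial tip cells, was lower at 3 d (-0.79), 7 d (-0.76) and 14 d (-0.66). Apln also rose after stress fracture, by 1.96 at 1 d, 2.01 at 3 d and 1.95 at 5 d.

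The genes whose pattern was most like each member were found over the 67 libraries, as differences from intact limbs of the same bone, among 14926 other genes. These correlations describe shared time courses of libraries that share bone and dissection. Kdr and Tek were each other's closest match, with r = 0.932, followed for both by Mmrn2, one of the 15 endothelial markers (0.885 with Kdr and 0.905 with Tek). Next came Egfl7, also a marker, for Kdr (0.875) and Wscd1 for Tek (0.901). Vegfb lay closest to Chchd10 (0.963), Crat (0.962) and Pdk2 (0.958). Pgf was closest to Upp1 (0.872), Bcl2l11 (0.870) and Cd93 (0.857), and Angpt2 to Sh3bp2 (0.871), Casp8 (0.849) and Upp1 (0.846). Angpt1 was nearest to Lgalsl (0.857), Ghr (0.844) and Kiz (0.843), and Vegfc to Slit2 (0.836), Ap3m2 (0.822) and Tnfrsf19 (0.810). Vegfa (Blcap 0.787, Pde4b 0.781, Hspa1a 0.769), Flt1 (Ifrd1 0.777, Hspa1a 0.768, Thbd 0.765) and Flt4 (Csmd1 0.744, Tgfbrap1 0.737, Tmem229b 0.732) had looser matches, and reads of Hspa1a cannot be parted surely from those of its near copy Hspa1b. Among the 10 genes themselves, Vegfa and Flt1 (0.736) and Pgf and Angpt2 (0.722) ran together, and Angpt1 and Angpt2 ran opposite (-0.70).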

How the data were processed

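RNA was rRNA-depleted total RNA. Per the submitters' processing notes, the authors aligned reads to mm10 with STAR 2.4.2a and counted them with featureCounts 1.4.6 of Subread; for the annotation, none is stated in these sources. The authors deposited RPKM values per gene and library. The authors' deposited tables also hold, per the file headers, DESeq2 log2 fold changes, p-values and a test statistic (score).

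RPKM were divided by 1 median-of-ratios factor per library, and genes with at least 0.5 scaled RPKM in 5 libraries were kept. Values were tested as log2(scaled RPKM + 0.1) with limma 3.58.1 (R 4.3.3; trend, robust, all groups of a bone in 1 fit, both bones for differences), with Benjamini-Hochberg adjustment over all genes and a threshold of 0.05. Ratios and receptors relative to endothelial markers used RPKM as deposited plus 0.1 and the exact two-sided permutation test, adjusted over 30 and 40 tests. Read totals were recovered from steps of RPKM, with 88.72% to 91.34% of values under 20 reads whole within 0.01. In each bone 27 names that a spreadsheet had turned into dates were left out. Simulated data held few changed genes, 100 with a log2 change of 0.5 and 100 with a change of 1. Among 19944 genes, a log2 change of 1 was recovered in 63% of changed genes for full fracture at 3 d, and 1.94% of calls were false. For the difference between injuries at 3 d these were 53% and 6.17%. In the real data 56.9% and 26.3% of all genes were called in these comparisons, so the simulated rates do not carry over to them. Genes of the surrounding pathways were named from the 2 with the largest change each way among called genes of each list whose higher group reached 1 scaled RPKM. The members and lists were chosen with earlier results of these data known. Alternatives were other scalings, pseudocounts, filters and variance models, a fit of 2 groups alone, the authors' deposited table, and each library left out in turn.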

Additional observations from a re-analysis of the deposited data

Results flagged for a closer look

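A library stood apart from the rest of its group, by Dixon's criterion, in 8 of 156 groups of levels and ratios, and chance flags about 1 in 20. Angpt2 was 9.55 scaled RPKM in femur 4 h library 4, against 6.92 to 7.36 in the others. In the ulna at 7 d, library 4 was apart with an Angpt1 level of 8.40 (others 6.10 to 6.30), a Vegfc level of 4.52 (others 5.76 to 5.94) and a ratio of Pgf to Vegfa of 0.108 (others 0.133 to 0.136), while library 1 was apart with a Flt1 level of 7.28 (others 6.34 to 6.44). At 3 d, ulna library 5 had an Angpt1 level of 5.33 (others 7.27 to 7.81) and ulna library 4 had a ratio of Flt1 to Kdr of 1.10 (others 0.616 to 0.651). At 5 d, ulna library 1 had a ratio of Pgf to Vegfa of 0.0792 (others 0.128 to 0.147).

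The response differed between full and stress fracture in 22 tests of the difference itself (limma, adjusted p under 0.05). At 4 h these were Pgf (2.34), Vegfa (0.898), Angpt2 (0.568), Flt1 (0.432), Vegfc (-0.652), Vegfb (-0.776), Tek (-1.15) and Kdr (-1.18). At 1 d they were Angpt2 (1.77), Pgf (1.43), Vegfc (-0.485), Vegfb (-0.776) and Angpt1 (-0.958). At 3 d they were Angpt2 (0.971), Pgf (0.74), Angpt1 (-0.599) and Vegfb (-0.913). At 7 d they were Flt1 (-0.419), Kdr (-0.481), Vegfc (-0.805), Flt4 (-0.829) and Vegfb (-1.37). Bone, piece length and the marrow step differ with the injury and cannot be told apart from it.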

How the results depend on the processing

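No paired analysis was possible because the columns of the tables carry no animal numbers. Counts of the 10 genes called after full fracture stayed within 1.5 times under every alternative run, and none of the 267 results tallied below reversed. After stress fracture the main counts of 2 at 4 h, 1 at 1 d, 1 at 3 d and 5 at 7 d became 4, 4 and 2 at the first 3 times in the authors' deposited table. A fit of 2 groups alone gave 1, 0 and 2 at those times. RPKM as deposited gave 2 at 3 d and 3 at 7 d, and no filter on low values gave 2 at 7 d. For steps between times, the femur count from 3 d to 7 d (3) became 5 under upper-quartile scaling and 5 on RPKM as deposited. In ulnas the count from 4 h to 1 d (1) became 2 as deposited, and that from 1 d to 3 d (1) became 2 as deposited, 0 with no filter and 0 with no trend and no robust step. The 5 genes lower in intact ulnas became 2 as deposited. RPKM as deposited moved the median of all genes by over 0.1 at 4 h (-0.04 to -0.15) and 7 d (-0.08 to -0.28) after full fracture, 5 d after stress fracture (-0.03 to -0.18), between intact bones (-0.01 to 0.20) and in the difference between injuries at 1 d (-0.06 to 0.04), 3 d (-0.06 to 0.05) and 7 d (-0.10 to -0.21). It did so too in femurs from 4 h to 1 d (-0.015 to 0.168), 3 d to 7 d (-0.002 to -0.266) and 7 d to 14 d (-0.002 to 0.17). The cause of the other shifts was not tested. Leaving out 1 library gave counts of 0 to 3 at 4 h, 0 to 2 at 1 d, 1 to 2 at 3 d and 1 to 5 at 7 d after stress fracture. It gave 2 to 4 for the difference between injuries at 3 d and 3 to 5 at 7 d. For steps it gave 3 to 5 in femurs from 3 d to 7 d, and in ulnas 0 to 2 from 1 d to 3 d and 1 to 3 from 3 d to 5 d. The change of the ratio of Angpt2 to Angpt1 after stress fracture then ran from 0.151 to 0.391 at 3 d and from 0.225 to 0.465 at 5 d. Over 267 results for single genes and ratios, 4409 of 4616 values with a library left out and 1672 of 1737 under other settings kept their call. The 267 results were a selection and did not hold every gene at every time. Left out were, for example, the calls of Flt1 at 4 h and 1 d after stress fracture that the authors' deposited table gained. These counts therefore do not give the share over all genes and times. In the simulation, with few changed genes, a log2 change of 0.5 was recovered in 23% to 43% of changed genes, so such changes can be missed. How often this happened in these data was not tested.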
